A study of Mus musculus with 32 samples.

Results

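The genes of the interleukins and of their receptors were examined across whole mouse lungs in 8 groups of 4 mice. The members were the array probes whose annotated gene name begins with Il and a digit, 100 probes for 82 genes. Probes were kept where some group of 4 mice had a signal well above background in each mouse. This left 66 probes for 58 genes, and 39163 of the 55681 mouse probes on the array passed the same filter. The 58 genes code for 19 ligands, 36 receptor chains, 2 antagonists or binding proteins (Il1rn and Il18bp) and 1 enzyme (Il4i1, an amino acid oxidase named for its induction by IL-4). A gene is represented below by its brightest probe unless another is named. The genes without a kept probe included Il10, Il12a, Il20, Il21, Il23a and Il31, which were above background on 0 of 32 arrays, Il13 and Il17a (4 arrays each), Il1a (5 arrays) and Il5 (11 arrays).

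Interleukins are secreted proteins with which immune, epithelial and stromal cells signal to one another, and many of them bind receptor chains that signal through JAK kinases and STAT factors or, in the IL-1 family, through MyD88 and NF-kB. The IL-17 receptors signal through the adaptor Act1, and IL-34 through the CSF-1 receptor, a tyrosine kinase. Many chains are shared between cytokines, so that the families are named after a common subunit, and some receptors are decoys that bind a cytokine without signalling. In the newborn lung, inflammatory cytokines rise with oxygen injury, and type 2 cytokines and their receptors accompany the immune maturation that follows birth.

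The study modelled bronchopulmonary dysplasia, the lung disease of preterm infants, by keeping newborn mice in 85% O2, which blocks the formation of alveoli. The arrays were of mice at P5 and P14, kept in 21% O2 or 85% O2 and treated with either a scrambled antimiR or antimiR-34a, an oligonucleotide that binds and inhibits miR-34a, so that every mouse received an oligonucleotide. Wild-type C57Bl/6J mice are named in the study's methods, the sample labels give neither strain nor sex, and the whole lung, perfused free of blood, was homogenized. One array was made for each mouse.

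Levels are given on a log2 scale on which 0 is the brightness of the 75th percentile of all probes of the mouse, and they can be compared between mice for one probe but not between probes. All differences were tested with limma, and a probe is said to have risen or fallen where its p-value, adjusted by the Benjamini-Hochberg method over all probes tested, was under 0.05. The 4 slides carried 8 mice each, all of equal age and oxygen level, so that oxygen or age and slide cannot be told apart. On every slide the scrambled antimiR mice filled a row and the antimiR-34a mice the other, so that antimiR and row cannot be told apart either. The scan dates of the P5 and P14 slides differed, so that age and scan coincide too. All 8 lung markers (Sftpc, Sftpb, Aqp5, Ager, Scgb1a1, Foxj1, Pecam1 and Col13a1) were above background in every group. The mouse labelled replicate 4 of the P5 group in 21% O2 given the scrambled antimiR stood apart, with skeletal muscle markers summing to 95.8 times the 75th percentile of its array, against at most 4.59 on the other arrays. In whole-lung RNA, fewer cells of a type and less RNA per cell cannot be told apart.

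The promoters shown are those of Il6, Il1r2, Il5ra and Il13ra2, each with a RefSeq promoter entry. Among the members given a size, Il6 and Il1r2 rose most and Il5ra and Il13ra2 fell most with oxygen at P14 in scrambled antimiR mice. Il4, given no size below, and Il2, given only a bound, had larger fitted falls than Il13ra2 and are not shown. Of the 58 genes, 47 had an entry. Each line holds the 250 bases before the transcription start on the strand of the gene (RefSeq, GRCm38.p6), and capitals mark matches to the motifs searched on both strands. The motifs were TGANTCA (AP-1), TTCNNNGAA (STAT), TGACNNNGC (antioxidant response element) and the NF-kB motif, and 6.75%, 7.02%, 10.2% and 7.25% of 32851 mouse promoters of that length held them.
Il6, chr5:30012864-30013113, plus strand: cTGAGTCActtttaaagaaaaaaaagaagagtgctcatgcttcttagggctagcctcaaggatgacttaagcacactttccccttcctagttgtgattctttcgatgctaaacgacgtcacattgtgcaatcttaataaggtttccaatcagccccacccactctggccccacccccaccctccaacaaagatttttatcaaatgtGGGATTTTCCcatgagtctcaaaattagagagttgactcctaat
Il1r2, chr1:40085843-40086092, plus strand: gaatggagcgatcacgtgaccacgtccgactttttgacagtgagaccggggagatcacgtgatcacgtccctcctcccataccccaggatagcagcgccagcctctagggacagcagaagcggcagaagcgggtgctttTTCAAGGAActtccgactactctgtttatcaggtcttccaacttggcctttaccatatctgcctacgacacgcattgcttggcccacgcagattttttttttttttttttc
Il5ra, chr6:106749038-106749287, minus strand: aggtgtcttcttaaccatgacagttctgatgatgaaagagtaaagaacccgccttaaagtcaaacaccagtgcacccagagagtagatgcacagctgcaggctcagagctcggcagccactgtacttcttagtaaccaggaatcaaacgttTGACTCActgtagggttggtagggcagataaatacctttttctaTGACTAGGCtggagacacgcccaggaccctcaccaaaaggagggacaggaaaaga
Il13ra2, chrX:147429193-147429442, minus strand: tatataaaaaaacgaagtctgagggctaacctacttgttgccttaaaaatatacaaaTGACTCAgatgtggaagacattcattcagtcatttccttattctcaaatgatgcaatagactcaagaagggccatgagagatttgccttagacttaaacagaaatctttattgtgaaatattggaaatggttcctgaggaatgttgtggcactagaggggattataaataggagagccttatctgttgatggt
In the Il6 promoter the capitals are an AP-1 match from -249 to -243 and an NF-kB match from -44 to -35, counted from the base before the start. In Il1r2 they are a STAT match from -111 to -103. Il5ra held an AP-1 match from -99 to -93 and an antioxidant response element match from -55 to -47, and Il13ra2 an AP-1 match from -193 to -187. A match describes these letters and was not tested as a binding site.

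Hyperoxia was accompanied by higher levels of more interleukin probes than lower ones at P5, and by changes in both directions at P14. In the scrambled antimiR mice at P5, 27 of the 59 member probes tested differed between 85% O2 and 21% O2 (45.8%), beside 43.9% of all probes tested. Of these, 20 were higher (33.9%, against 17.5% of all probes) and 7 lower (11.9%, against 26.4%). At P14, 36 of 65 member probes differed (55.4%, against 60.8%), 20 higher (30.8%, against 28.4%) and 16 lower (24.6%, against 32.4%). The median log2 difference of the members was 0.14 at P5 and 0.10 at P14, and that of all probes -0.07 and -0.06. Another scaling moved the split of the calls. With normexp background correction it was 22 higher and 4 lower at P5 and 24 and 9 at P14, and with quantile normalization it was 24 and 6 at P5 and 24 and 12 at P14. Counted by gene, 16 rose and 7 fell of 52 at P5, and 18 rose and 15 fell of 57 at P14. Of the genes called, 4 at P5 (Il18rap, Il1f9, Il1rn and Il22ra1) and 6 at P14 (Il6, Il1rapl2, Il2, Il3, Il31ra and Il4) were above background on all 4 arrays of a group only at the oxygen level where they were higher, so that they entered the test through that level and their calls are in part fixed by the filter. In all, 8 genes rose at both ages (Il6, Il11, Il1r1, Il34, Il10rb, Il17rc, Il17re and Il18rap), 3 fell at both (Il13ra2, Il17rd and Il9r), and 2 changed in opposite directions (Il7r and Il17d). These are 15.7%, 5.88% and 3.92% of the 51 genes tested at both ages, and of all probes tested at both ages 11.3%, 13.6% and 3.87% did so.

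The same comparison in the antimiR-34a mice called 26 of 59 probes at P5 (44.1%, against 46.6% of all probes), 18 higher (30.5%, against 17.2%) and 8 lower (13.6%, against 29.5%). At P14 it called 41 of 65 (63.1%, against 65.6%), 24 higher (36.9%, against 27.8%) and 17 lower (26.2%, against 37.8%). With quantile normalization these splits were 27 and 6 at P5 and 31 and 13 at P14, and with normexp correction the P14 split was 22 and 8. These mice shared slides with the scrambled antimiR mice of their oxygen level and age.

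**Figure D1:**
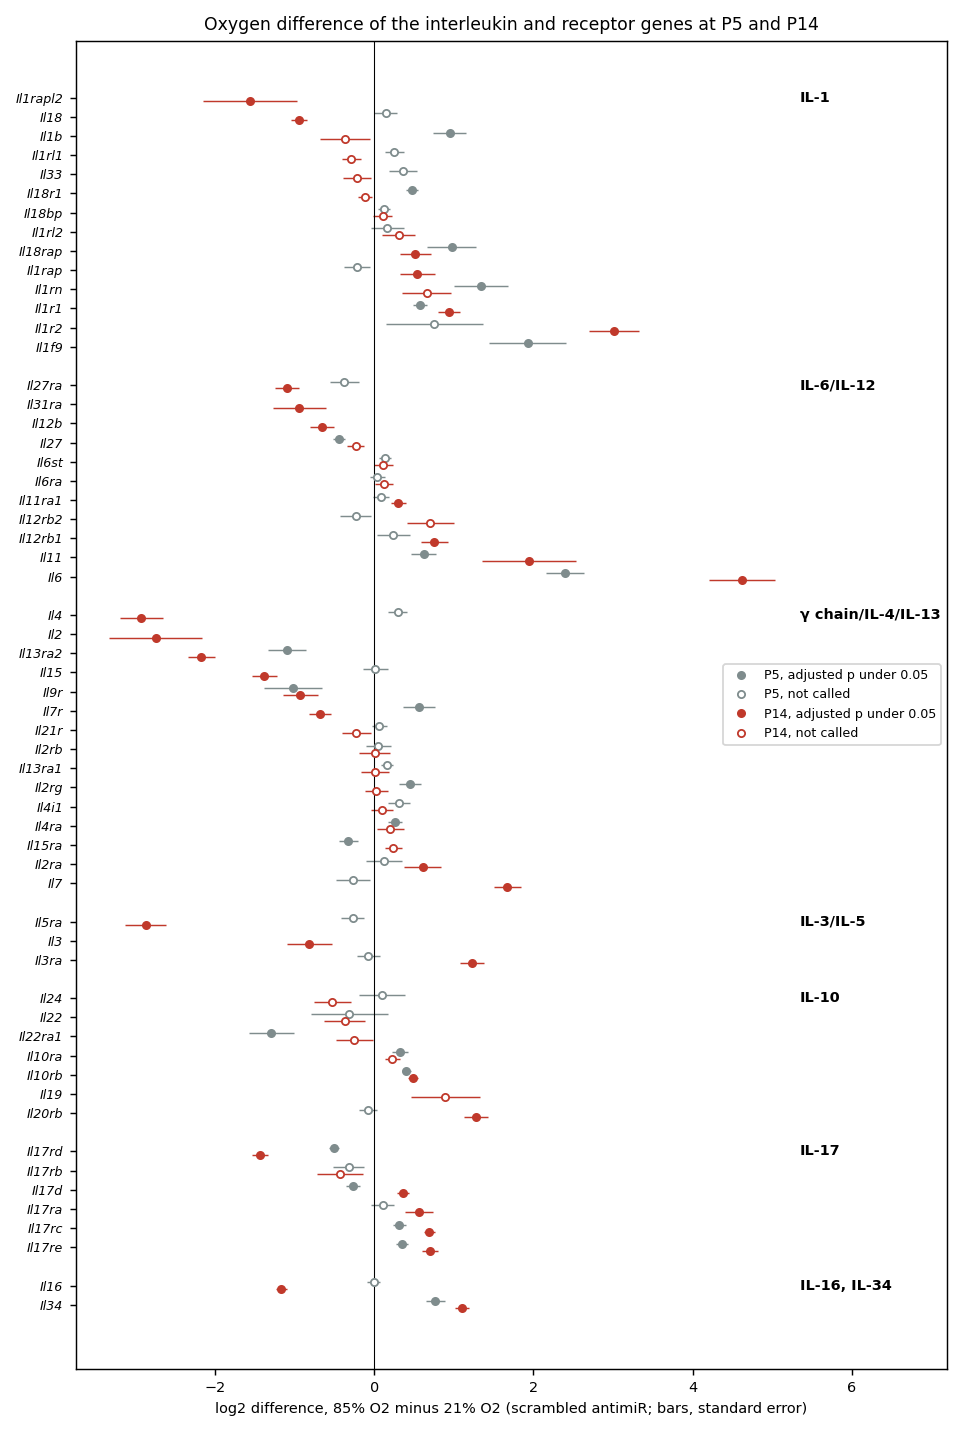
Oxygen difference of each gene at P5 (grey) and P14 (red) in scrambled antimiR mice, as log2 of 85% O2 minus 21% O2 with its standard error (4 mice a group), in the families of the cytokines. Filled points have an adjusted p under 0.05, and points of genes that the text gives only a bound or no size are fitted values. Il6 and Il1r2 lie farthest to the right at P14, at 4.62 and 3.01. Of the genes above background on all arrays of both groups, Il5ra lies farthest to the left, at -2.88.

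Of the IL-6 and IL-12 families, whose receptors contain the gp130 chain or chains related to it, Il6 showed the highest rise at both ages among all members given a size. Il6 codes for the acute-phase cytokine IL-6 and was read by a probe at chr5:30346367-30346426 (mm9, the build of the array annotation). At P5 the Il6 level in scrambled antimiR mice was -5.27, -5.42, -5.82 and -5.52 in 21% O2 and -3.65, -3.15, -3.17 and -2.48 in 85% O2. At P14 it was -5.50, -5.79, -5.51 and -6.65 in 21% O2, with 3 of the 4 arrays above background, and -0.96, -1.20, -1.11 and -1.70 in 85% O2. Every mouse in 85% O2 lay above every mouse in 21% O2 at both ages. The log2 difference was 2.40 ± 0.24 (SE, adjusted p = 3.9e-06) at P5, a 5.26-fold rise, and 4.62 ± 0.41 (adjusted p = 7.38e-07) at P14. The difference was larger at P14 by 2.22 ± 0.50 (adjusted p = 0.000928 for the interaction of oxygen and age). In the antimiR-34a mice, Il6 also rose at both ages (adjusted p = 9.93e-06 and 2.1e-07), with 1 of 4 arrays in 21% O2 above background at P5 and 2 of 4 at P14.

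Il11, the cytokine of the same family made largely by stromal cells, rose by 0.62 ± 0.16 on the log2 scale at P5 (adjusted p = 0.00696) in scrambled antimiR mice. In antimiR-34a mice at P5 its mean was -3.81 in 21% O2 and -3.45 in 85% O2, and it was not called. At P14 its level was -3.49, -3.23, -3.34 and -2.57 in 21% O2 and -1.10, -1.34, -1.12 and -1.29 in 85% O2 in scrambled antimiR mice, with no overlap, and the difference was 1.94 ± 0.59 (adjusted p = 0.0111), a 3.85-fold rise. In the antimiR-34a mice in 85% O2 at P14, Il11 was -1.27, 2.29, -1.46 and -0.40, and the mouse at 2.29 also had the highest Il6 level of all mice, 1.03. That mouse also stood apart in cell markers, with a neutrophil marker sum of 47.9 times the 75th percentile against 14.1 to 21.5 in the other 3 mice, a T and B lymphocyte marker sum of 7.70 against 10.95 to 12.5, and a thymus marker sum of 1.01 against 1.54 to 2.00. Its macrophage marker sum was 100 against 77.6 to 84.6. The part of these cells in its Il6 and Il11 levels was not tested. In antimiR-34a mice at P14 the difference between the oxygen levels was 2.78 for Il11 with all mice and 1.95 without that mouse, labelled replicate 2. For Il6, above background on 2 of 4 arrays in 21% O2, it was 5.30 and 4.83. Both genes were still called without that mouse. The receptor chains of both cytokines showed smaller differences. Il6ra, the IL-6 binding chain, differed by 0.04 at P5 and 0.12 at P14, and Il6st, which is gp130, by 0.14 and 0.11, none of them called. Il11ra1, which may share signal with near-identical copies of the gene, rose by 0.30 ± 0.09 at P14 (adjusted p = 0.0114), but with quantile normalization the difference was 0.10 and not called.

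The other members of these families were mixed. Il12rb1, a chain shared by the IL-12 and IL-23 receptors, rose by 0.75 ± 0.17 at P14 (adjusted p = 0.00187). Il27ra, the receptor of IL-27, fell by 1.10 ± 0.15 (adjusted p = 2.61e-05) at P14, where Il12b, the shared p40 subunit of IL-12 and IL-23, also fell by 0.66 ± 0.15 (adjusted p = 0.00186). Il27 fell by 0.45 ± 0.07 at P5 (adjusted p = 0.000217). In all, 2 of 9 genes of these families rose and 1 fell at P5, beside 17.5% of all probes higher and 26.4% lower, and 4 of 11 rose and 3 fell at P14, beside 28.4% and 32.4%. Among those called at P14, Il6 and Il31ra entered the test only through the oxygen level where they were higher.

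**Figure D2:**
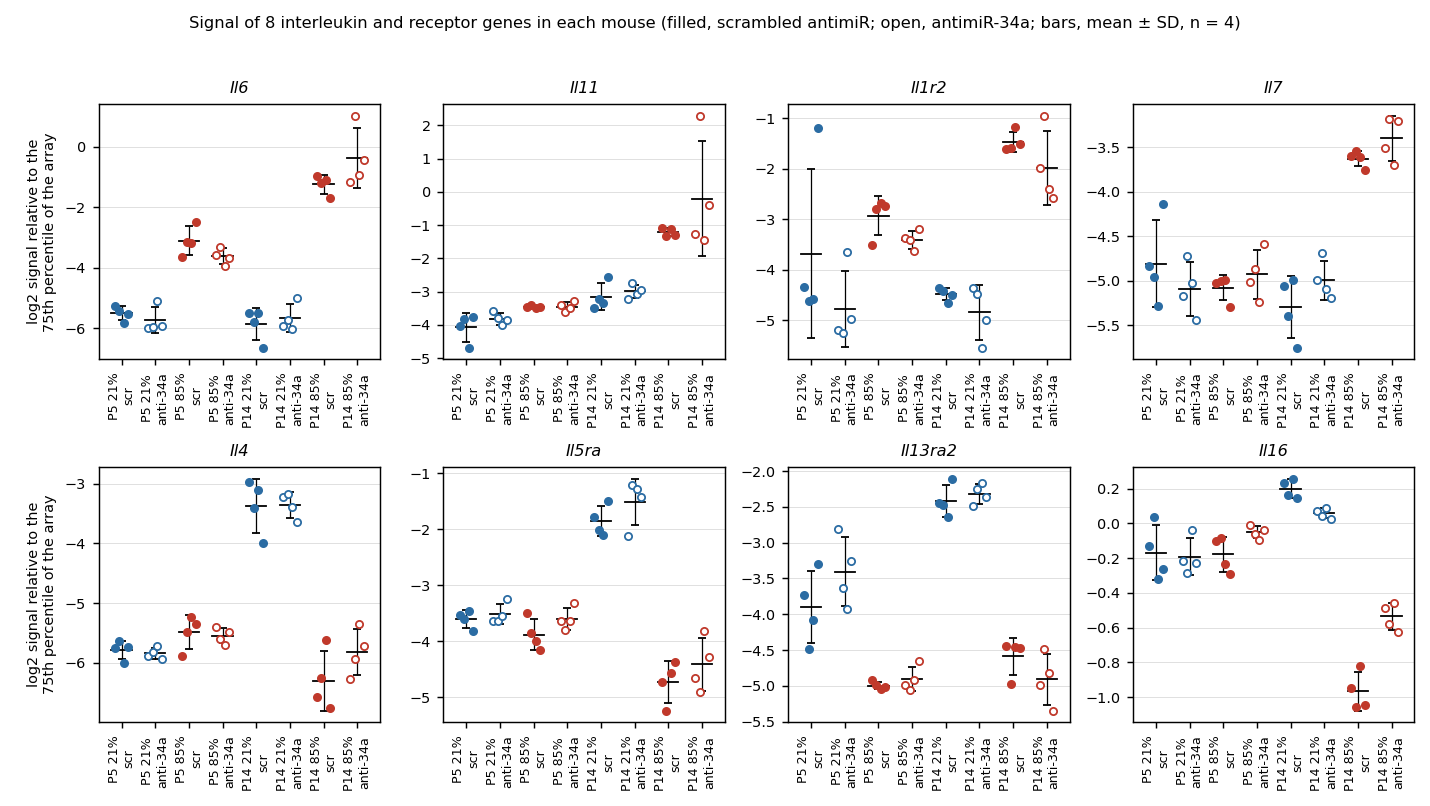
Level of members by mouse (log2, where 0 is the 75th percentile of all probes), in the 8 groups of 4 mice. Points are single mice and the bar is the mean of the group. The Il6 points of the P14 mice in 85% O2 lie between -1.70 and 1.03, above all other mice, and the Il4 and Il5ra points of the P14 mice in 21% O2 lie above all other groups.

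In the IL-1 family, 6 of 13 genes rose and 0 fell at P5 (17.5% and 26.4% of all probes), and 4 of 13 rose and 2 fell at P14 (28.4% and 32.4% of all probes). The P14 share that rose was near that of all probes. Among the P5 rises, Il18rap, Il1f9 and Il1rn entered the test only through mice in 85% O2. The P5 count is therefore in part fixed by the filter. Il1b, the inflammatory ligand IL-1β, was -2.10, -1.71, -2.10 and -2.00 in 21% O2 and -1.39, -1.02, -1.05 and -0.67 in 85% O2 at P5 in scrambled antimiR mice. The groups did not overlap, and Il1b rose by 0.95 ± 0.21 (adjusted p = 0.00221, 1.93-fold). At P14 the difference was -0.37 and was not called, and the oxygen differences at the 2 ages themselves differed by -1.31 ± 0.39 (adjusted p = 0.0089). In antimiR-34a mice at P5 the mean of Il1b was -2.01 in 21% O2 and -1.61 in 85% O2, and Il1b was not called. Il1rn, the IL-1 receptor antagonist, rose by 1.35 ± 0.34 at P5 (adjusted p = 0.00551), with 3 of 4 arrays in 21% O2 above background, and differed by 0.66 at P14 without being called. Il1f9, which codes for IL-36γ, was above background on 0 of 4 arrays in 21% O2 and 4 of 4 in 85% O2 at P5, and was at least 1.28-fold higher in 85% O2 (adjusted p = 0.00529). A bound of this kind sets the brighter group against the faintest probes that are well above background on the arrays of the dimmer group.

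Among the receptors of the family, the decoy receptor Il1r2, which binds IL-1 without signalling, showed the largest rise. At P14 its level in scrambled antimiR mice was -4.36, -4.42, -4.65 and -4.50 in 21% O2 and -1.61, -1.59, -1.18 and -1.52 in 85% O2. The groups were far apart, and the difference was 3.01 ± 0.31 (adjusted p = 2.58e-06), an 8.06-fold rise. In antimiR-34a mice it was 2.86. At P5, Il1r2 was -4.35, -4.63, -4.58 and -1.19 in 21% O2 and -3.51, -2.80, -2.69 and -2.74 in 85% O2. The value of -1.19 belongs to the mouse with skeletal muscle signal. With it the P5 difference was 0.75 ± 0.61 (adjusted p = 0.335), and without it 1.59 (adjusted p = 0.00172). The interaction of oxygen and age was 2.26 ± 0.72 (adjusted p = 0.0136) with that mouse and 1.43 (adjusted p = 0.0177) without it.

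The signalling receptor Il1r1 rose at both ages, by 0.57 ± 0.09 at P5 (adjusted p = 0.000146) and 0.94 ± 0.14 at P14 (adjusted p = 4.84e-05), with no overlap between the oxygen levels. Il18r1 and Il18rap, both chains of the IL-18 receptor, rose by 0.48 ± 0.08 (adjusted p = 0.000208) and 0.97 ± 0.31 (adjusted p = 0.0191) at P5, Il18rap with 3 of 4 arrays in 21% O2 above background. Without replicate 2 of the scrambled antimiR mice in 85% O2, the Il18rap difference was 0.82 and no longer called (adjusted p = 0.063), and without replicate 1 of those in 21% O2 it was 0.58 and still called. At P14 Il18rap rose by 0.52 ± 0.20 (adjusted p = 0.0361) while Il18r1 differed by -0.12, which was not called. Their ligand Il18 was unlike them, with 0.14 at P5, not called, and a fall of 0.95 ± 0.11 at P14 (adjusted p = 4.86e-06). Il33, an alarmin of epithelial and stromal nuclei, differed by 0.36 at P5 and -0.22 at P14, and its receptor Il1rl1 (ST2) by 0.25 and -0.29, and none of these was called. The probes of Il1rap, the accessory chain of the IL-1 receptor, disagreed at P14, where the brightest rose by 0.54 ± 0.22 (adjusted p = 0.0455) and the dimmer one, above background on 4 of 4 arrays in 21% O2 and 1 of 4 in 85% O2, fell (adjusted p = 0.0436).

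Neutrophil markers, 7 of whose 8 genes were on the array, summed to 30.6 to 45.1 times the 75th percentile in 21% O2 and 33.9 to 47.1 in 85% O2 at P5, and to 23.7 to 33.6 and 27.7 to 55.3 at P14, in scrambled antimiR mice. Macrophage markers, all 10 above background, summed to 48.3 to 57.5 and 52.7 to 81.4 at P5, and to 97.2 to 144 and 73.1 to 129.3 at P14. The sums of the oxygen levels overlapped in each case, but the macrophage markers moved apart. Of the 10, 7 rose and 1 fell at P5, and 6 rose and 3 fell at P14. Marco rose by 1.84 and 2.40, Cd14 by 1.21 and 1.56 and Cd68 by 1.19 and 0.87 on the log2 scale at P5 and P14, while Ear2 fell by 0.50 and 2.31, and Chil3 and Lyz2 fell by 2.42 and 1.18 at P14. Of the 7 neutrophil markers, 0 rose and 1 fell at P5, and 2 rose and 1 fell at P14, in limma with Benjamini-Hochberg adjustment. The part of these cells in the levels of Il1b, Il1r2 and Il1rn was not tested.

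The family of the common γ chain and of IL-4 and IL-13 had 2 of 15 genes that rose and 6 that fell at P14, beside 28.4% and 32.4% of all probes. At P5, 3 of 14 rose and 3 fell, beside 17.5% and 26.4%. Among the P14 falls, Il4 and Il2 entered the test only through mice in 21% O2. Il4, the type 2 cytokine of T helper cells, mast cells and basophils, was read at chr11:53426076-53426135 (mm9). At P14 its level in scrambled antimiR mice was -2.97, -3.41, -3.10 and -4.00 in 21% O2 and -6.57, -6.26, -5.61 and -6.75 in 85% O2. The groups were separate, and Il4 fell (adjusted p = 9.03e-07), but no size is given, since only 1 of 4 arrays in 85% O2 was above background. At P5 the levels were near those of the P14 mice in 85% O2, at -5.75, -5.64, -6.00 and -5.74 in 21% O2 and -5.89, -5.49, -5.23 and -5.35 in 85% O2, with 3 of 4 arrays above background in 21% O2, and the difference of 0.29 was not called. The interaction of oxygen and age was called toward lower at P14 (adjusted p = 2.63e-08).

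Il13ra2, the decoy receptor of IL-13, fell at both ages. At P5 its level was -3.73, -4.48, -4.07 and -3.29 in 21% O2 and -4.92, -4.99, -5.05 and -5.02 in 85% O2, a fall of 1.10 ± 0.24 (adjusted p = 0.00197). At P14 the levels were -2.45, -2.47, -2.64 and -2.10 against -4.45, -4.98, -4.46 and -4.47, and the fall was 2.17 ± 0.17 (adjusted p = 2.7e-07), to 0.222 of the level in 21% O2. The P14 fall exceeded that at P5 by 1.07 (interaction -1.07 ± 0.30, adjusted p = 0.00663). Il13ra1, the signalling chain, differed by 0.16 at P5 and 0.00 at P14 and was not called. Il4ra, the chain shared by IL-4 and IL-13, rose by 0.26 ± 0.09 at P5 (adjusted p = 0.0267) on its brightest probe and by 0.76 ± 0.14 (adjusted p = 0.000721) on its second probe, and the call of the brightest probe was lost in 3 of 8 fits that left out 1 mouse. At P14 the brightest probe differed by 0.20, not called, and the second rose by 1.07 ± 0.16 (adjusted p = 7.95e-05).

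Of the ligands for lymphocytes, Il7 and Il15 moved in opposite directions at P14 and neither was called at P5. Il7, a stromal survival factor of lymphocytes, was -5.05, -5.39, -4.99 and -5.75 in 21% O2 and -3.60, -3.54, -3.61 and -3.75 in 85% O2 at P14 in scrambled antimiR mice. It rose by 1.67 ± 0.17 (adjusted p = 1.92e-06), with 3 of 4 arrays in 21% O2 above background, and in antimiR-34a mice by 1.60. Il15, which sustains natural killer and memory T cells, was -2.14, -2.29, -2.16 and -2.33 against -3.16, -3.58, -3.90 and -3.80 and fell by 1.38 ± 0.16 (adjusted p = 5.36e-06). Neither gene had overlapping groups. The P5 differences were -0.27 for Il7 and 0.01 for Il15, neither called, and the interactions of oxygen and age were 1.95 ± 0.28 and -1.40 ± 0.22 (adjusted p = 7.68e-06 and 2.99e-05).

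Il7r, the receptor chain of IL-7 on lymphocytes, rose by 0.56 ± 0.20 at P5 (adjusted p = 0.0381) and fell by 0.68 ± 0.14 at P14 (adjusted p = 0.00102). The P5 call was lost in 7 of the 8 fits that left out 1 mouse, in which the difference lay between 0.42 and 0.80. Il9r, the receptor of IL-9, fell by 1.03 ± 0.36 at P5 (adjusted p = 0.0337, lost in 6 of 8 such fits) and 0.93 ± 0.22 at P14 (adjusted p = 0.00224). Il2ra rose by 0.61 ± 0.23 at P14 (adjusted p = 0.0352, lost in 5 of 8), and Il2rg, the common γ chain itself, rose by 0.45 ± 0.14 at P5 (adjusted p = 0.0161) and differed by 0.02 at P14. The Il2rg call was lost without replicate 1 of the mice in 21% O2 and without replicate 2 of those in 85% O2. The probes of Il15ra disagreed at P5, with -0.33 ± 0.12 on the brightest probe and 0.28 ± 0.09 on the other (adjusted p = 0.0433 and 0.0214), and the call of the brightest was lost in 6 of 8 fits that left out 1 mouse.

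Of the IL-3 and IL-5 family, Il5ra and Il3ra, the ligand-binding chains of the IL-5 and IL-3 receptors, moved apart. Il5ra, carried by eosinophils and by some B cells, was -1.79, -2.01, -2.10 and -1.49 in 21% O2 and -4.72, -5.24, -4.57 and -4.38 in 85% O2 at P14 in scrambled antimiR mice. All 16 arrays of that age were above background, the groups did not overlap, and Il5ra fell by 2.88 ± 0.26 (adjusted p = 7.72e-07), to 0.136 of the level in 21% O2. The difference was -0.27 at P5, not called, and the interaction of oxygen and age was -2.60 ± 0.30 (adjusted p = 5.34e-07). Il3ra was 2.10, 2.41, 2.20 and 2.34 in 21% O2 and 3.30, 3.38, 3.59 and 3.68 in 85% O2 at P14, a rise of 1.23 ± 0.16 (adjusted p = 1.56e-05), and differed by -0.07 at P5.

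T and B lymphocyte markers (10 genes, all above background in each group) moved with these falls. Their sum was 20.2 to 28.9 in 21% O2 and 9.96 to 13.4 in 85% O2 in the scrambled antimiR mice at P14, and 11.9 to 14.8 over both oxygen levels at P5. Thymus markers, of which 6 of 8 were above background in 21% O2 and 3 of 8 in 85% O2 at P14, summed to 5.88 to 6.53 and 1.63 to 1.93. Markers of mast cells and basophils summed to 7.92 to 8.41 in 21% O2 and 7.65 to 9.97 in 85% O2 at P14, where 4 of the 6 tested rose and 1 fell. Of these markers, Tpsab1 and Ms4a2 were not above background on all 4 arrays of any group. The part of these cells in the falls of Il4, Il5ra, Il7r, Il15 and Il16 was not tested.

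Il16, which codes for the precursor of a T cell chemoattractant, had the smallest p-value of all members at P14. It was read at chr7:90791654-90791713 (mm9). Its level in scrambled antimiR mice was 0.23, 0.17, 0.26 and 0.14 in 21% O2 and -0.95, -1.06, -0.82 and -1.04 in 85% O2, tight in both groups and without overlap. Il16 fell by 1.17 ± 0.07 (adjusted p = 1e-08), to 0.445 of the level in 21% O2. At P5 the difference was -0.01 and not called, and the interaction of oxygen and age was -1.16 ± 0.10 (adjusted p = 7.51e-09). Il34, a ligand of the CSF-1 receptor on macrophages, rose instead. Its P5 level was -0.08, 0.01, -0.16 and 0.06 against 0.59, 0.86, 0.74 and 0.70, and its P14 level 0.11, 0.22, 0.25 and 0.28 against 1.21, 1.18, 1.39 and 1.51. The oxygen levels did not overlap at either age, and Il34 rose by 0.77 ± 0.12 (adjusted p = 0.000171) at P5 and 1.11 ± 0.09 (adjusted p = 2.02e-07, 2.15-fold) at P14.

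In the IL-17 family, none of the kept probes read IL-17A or IL-17F, and the receptor chains made up the family beside Il17d. Il17rc and Il17re rose at both ages, by 0.32 ± 0.08 and 0.35 ± 0.08 at P5 (adjusted p = 0.00449 and 0.00228) and by 0.69 ± 0.07 and 0.70 ± 0.10 at P14 (adjusted p = 2.85e-06 and 3.85e-05). Il17ra, the chain common to the family, differed by 0.11 at P5 and rose by 0.56 ± 0.17 at P14 (adjusted p = 0.0127). Il17rd, an orphan chain known as Sef that restrains fibroblast growth factor signalling, was 1.67, 1.85, 1.91 and 1.69 in 21% O2 and 1.19, 1.29, 1.26 and 1.36 in 85% O2 at P5, and 2.13, 2.12, 1.99 and 1.85 against 0.52, 0.37, 0.57 and 0.86 at P14. It fell without overlap by 0.50 ± 0.06 (adjusted p = 1.84e-05) and 1.44 ± 0.10 (adjusted p = 9.78e-08), and the interaction was -0.93 ± 0.12 (adjusted p = 1.27e-06). Il17d fell by 0.27 ± 0.09 at P5 (adjusted p = 0.0201) and rose by 0.36 ± 0.07 at P14 (adjusted p = 0.000786) on its brightest probe, and its other probe was not called at either age (0.07 and 0.06). The P5 fall of Il17d was no longer called without replicate 1 in 21% O2 or without replicate 2 in 85% O2.

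In the IL-10 family, 2 of 6 genes rose and 1 fell at P5 (17.5% and 26.4% of all probes), and 2 of 7 rose at P14, near the 28.4% of all probes. Il10rb, a chain of the receptors of IL-10, IL-22 and the type III interferons, rose by 0.40 ± 0.05 at P5 (adjusted p = 4.58e-05) and 0.49 ± 0.07 at P14 (adjusted p = 2.97e-05). Il10ra, the IL-10 binding chain, rose by 0.33 ± 0.10 at P5 (adjusted p = 0.0176), a call lost without replicate 1 in 21% O2 and without replicate 4 in 85% O2. Il20rb, a receptor chain for IL-19, IL-20 and IL-24, was -2.20, -2.02, -2.22 and -2.36 in 21% O2 and -0.82, -0.81, -1.04 and -1.02 in 85% O2 at P14, a rise of 1.28 ± 0.15 (adjusted p = 6.35e-06), and differed by -0.08 at P5. Il22ra1, the epithelial chain of the IL-22 receptor, was above background on 4 of 4 arrays in 21% O2 and 0 of 4 in 85% O2 at P5, and was at least 1.76-fold lower in 85% O2 (adjusted p = 0.00209). It entered the P5 test through the scrambled antimiR mice in 21% O2 alone.

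Several members that fell at P14 were close to background, and Il2, Il3, Il31ra and Il1rapl2 entered the test only through the mice in 21% O2, where they were higher. Il2 was -5.12, -5.44, -6.50 and -3.58 in the scrambled antimiR mice in 21% O2, and below background on all 4 arrays in 85% O2, where it was at least 1.92-fold lower (adjusted p = 0.00107). The value of -3.58 belongs to the array with the dimmest 75th percentile of its group, 9.34 against 10.1 to 10.2 on the log2 scale. In antimiR-34a mice in 21% O2, Il2 was -6.07 on the brightest array (10.2) and -4.01, -3.83 and -3.88 on the arrays at 9.61, 9.64 and 9.56. Il1rapl2 and Il31ra were likewise highest on the dimmest of the 4 scrambled antimiR arrays, at -5.34 and -4.74. Il4 was lowest there, at -4.00. Il1rapl2 was above background on 3 of 4 arrays in 21% O2 and 0 of 4 in 85% O2, and Il31ra on 4 of 4 and 1 of 4, so that no size is given for either. Both were called lower in 85% O2 (adjusted p = 0.0341 and 0.0263), and these calls were lost in 6 of 8 and 4 of 8 fits that left out 1 mouse. Il3 was at least 1.27-fold lower in 85% O2 (adjusted p = 0.023).

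With normexp background correction, which adds an offset of 50 to every signal, Il2, Il1rapl2 and Il31ra were not called, the sign of Il1rapl2 and Il31ra turned, and the Il9r difference was -0.26 and not called. The same correction gave 2.59 for Il6, 1.96 for Il1r2, 0.89 for Il7, -1.46 for Il5ra and -1.04 for Il13ra2 at P14, all still called, as was Il4. With the 75th percentile as a covariate Il2, Il1rapl2 and Il31ra were called lower.

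**Figure D3:**
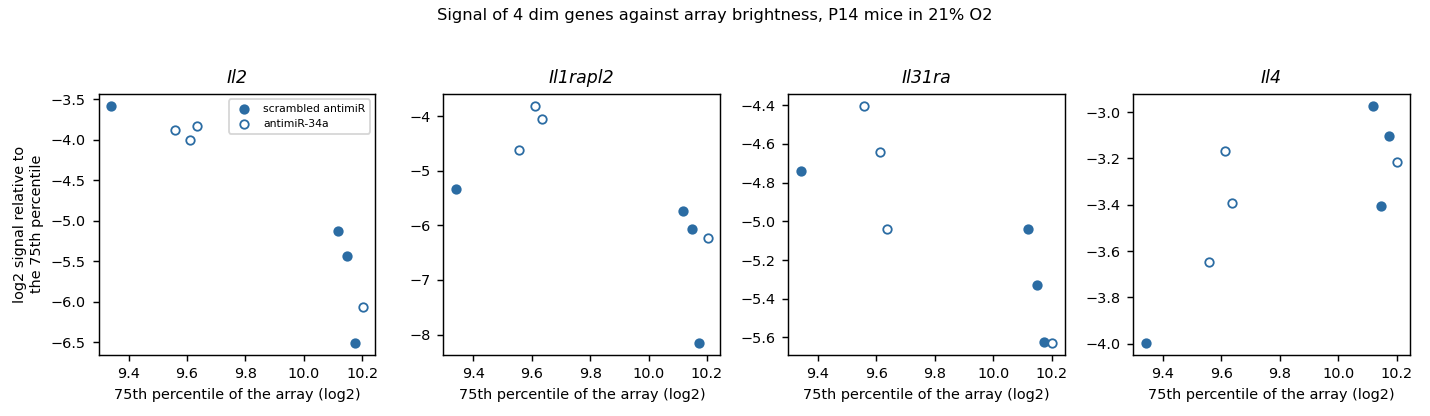
Level of 4 dim members on the 8 arrays of P14 mice in 21% O2 (y axis, log2, as in the plot by mouse) against the 75th percentile of the array (x axis, log2 signal), with scrambled antimiR and antimiR-34a mice marked apart. Il2 lies at -3.58 on the dimmest array and -6.50 on one of the brightest, while Il4 lies between -4.00 and -2.97 throughout.

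Signalling was read from a list of 30 genes, among them genes of JAK, STAT, MyD88 and NF-kB signalling, all of them tested. In scrambled antimiR mice, 13 rose and 3 fell at P5, beside 17.5% and 26.4% of all probes, and 11 rose and 9 fell at P14, close to the 28.4% and 32.4% of all probes. Socs3, the feedback inhibitor of IL-6 signalling, rose by 0.73 ± 0.13 at P5 and 2.03 ± 0.19 at P14 (adjusted p = 0.0006 and 1.19e-06), and Stat3, the factor activated through gp130, by 0.78 ± 0.08 and 1.45 ± 0.15 (adjusted p = 7.08e-06 and 2.72e-06). Nfkbia, the inhibitor of NF-kB, rose by 0.57 and 0.97. Those that fell furthest were Nlrp3 (-0.62), Stat5a (-0.30) and Stat5b (-0.27) at P5, and Tyk2 (-1.08), Stat5b (-0.77) and Pias3 (-0.75) at P14.

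Of a list of 20 partner cytokines and receptors, 19 were tested. Among them, 8 rose and 2 fell at P5 (17.5% and 26.4% of all probes) while 8 rose and 4 fell at P14 (28.4% and 32.4%). Osmr, the oncostatin M receptor, rose by 1.13 ± 0.10 at P5 and 2.01 ± 0.16 at P14 (adjusted p = 8.51e-07 and 2.25e-07). Lifr, the other gp130 partner chain, fell by 0.51 ± 0.06 and 1.47 ± 0.08 (adjusted p = 1.86e-05 and 6.83e-09). Lif rose by 1.59 and Csf2 by 0.82 at P5, Ptprz1 rose by 0.90 at P14, and Cntfr fell by 1.34 and Clcf1 by 0.71 at P14. Csf3r fell by 0.31 at P5.

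Inhibition of miR-34a was the treatment the study tested, against miR-34a-5p, whose RefSeq sequence is shown with its seed, bases 2 to 8, in capitals.
miR-34a-5p: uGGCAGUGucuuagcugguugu
In 3 of the 4 settings no member probe differed between antimiR-34a and scrambled antimiR in limma with Benjamini-Hochberg adjustment. These were 21% O2 at P5 (0 of 59, against 0.136% of all probes), 85% O2 at P5 (0 of 59, against 0.0639%) and 21% O2 at P14 (0 of 65, against 0%). At an unadjusted p under 0.05, 7, 7 and 8 member probes passed (11.9%, 11.9% and 12.3%, against 17.4%, 13.0% and 10.5% of all probes), and the methods' t-test with the same adjustment called 0 in each. In 85% O2 at P14, 2 of 65 member probes were called, both higher (3.08%, against 2.66% of all probes). The interaction of oxygen and antimiR called 0 of 59 member probes at P5 (against 0.0556%, with 3 probes or 5.08% against 10.9% of all probes at an unadjusted p under 0.05) and 1 of 65 at P14 (1.54%, against 0.0884%).

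Il16 was the member that rose with antimiR-34a in 85% O2 at P14 with no overlap of the groups, at -0.49, -0.58, -0.46 and -0.62 against -0.95, -1.06, -0.82 and -1.04. The rise was 0.43 ± 0.07 (adjusted p = 0.00489), 1.35-fold. In 21% O2 at that age the antimiR-34a mice were at 0.07, 0.04, 0.09 and 0.03, all below the scrambled antimiR mice, a difference of -0.14 ± 0.07 (adjusted p = 0.473). The Il16 fall in 85% O2 was therefore 1.17 with scrambled antimiR and 0.59 with antimiR-34a, and this interaction was 0.57 ± 0.09 (adjusted p = 0.0417). The Il16 rise was called in all 8 fits that left out 1 mouse, but not with only the compared groups in the fit (adjusted p = 0.118) or with the methods' t-test (adjusted p = 0.251), and the interaction was lost in 12 of 16 such fits.

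Il1rl1, the IL-33 receptor, was the other one, at -0.72, -0.17, -0.40 and -0.24 against -1.08, -0.88, -0.60 and -1.04. The groups overlapped, and the difference was 0.52 ± 0.12 (adjusted p = 0.0373). The call was lost in 6 of 8 fits that left out 1 mouse. It was read at chr1:40522187-40522246 (mm9), and the other Il1rl1 probes were above background on 4 of 32 arrays each. Il6 and Il11 were 0.86 ± 0.41 and 1.00 ± 0.59 higher with antimiR-34a there (adjusted p = 0.315 and 0.427), with overlapping groups. Without replicate 2 of the antimiR-34a mice the differences were 0.39 and 0.17.

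In the settings with no call, the smallest p-values belonged to Il17rd (0.22 ± 0.06, adjusted p = 0.131), Il22ra1 (above background on 4 of 4 arrays with scrambled antimiR and 0 of 4 with antimiR-34a, adjusted p = 0.199) and Il15ra (0.33, adjusted p = 0.212) in 21% O2 at P5, to Il3ra (0.65 ± 0.15, adjusted p = 0.129), Il17re (0.24, adjusted p = 0.236) and Il1b (-0.58, adjusted p = 0.283) in 85% O2 at P5, and to Il10ra (-0.31), Il18rap (above background on 1 of 4 arrays with antimiR-34a) and Il12b (0.45) in 21% O2 at P14 (adjusted p = 0.473 for each). For the interaction at P5 they belonged to Il17re (0.38, adjusted p = 0.254), Il17rd (-0.23, adjusted p = 0.367) and Il22ra1 (adjusted p = 0.424), which was above background in 1 of the 4 groups and is given no size. Of the signalling list, Nfkbiz rose by 0.65 and Nfkbia and Cish fell by 0.49 and 0.40 with antimiR-34a in 85% O2 at P14, and of the partner list, Csf1 rose by 0.44. In 21% O2 at P5, 1 of the 19 partner genes tested was higher with antimiR-34a, beside 0.136% of all probes called.

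**Figure D4:**
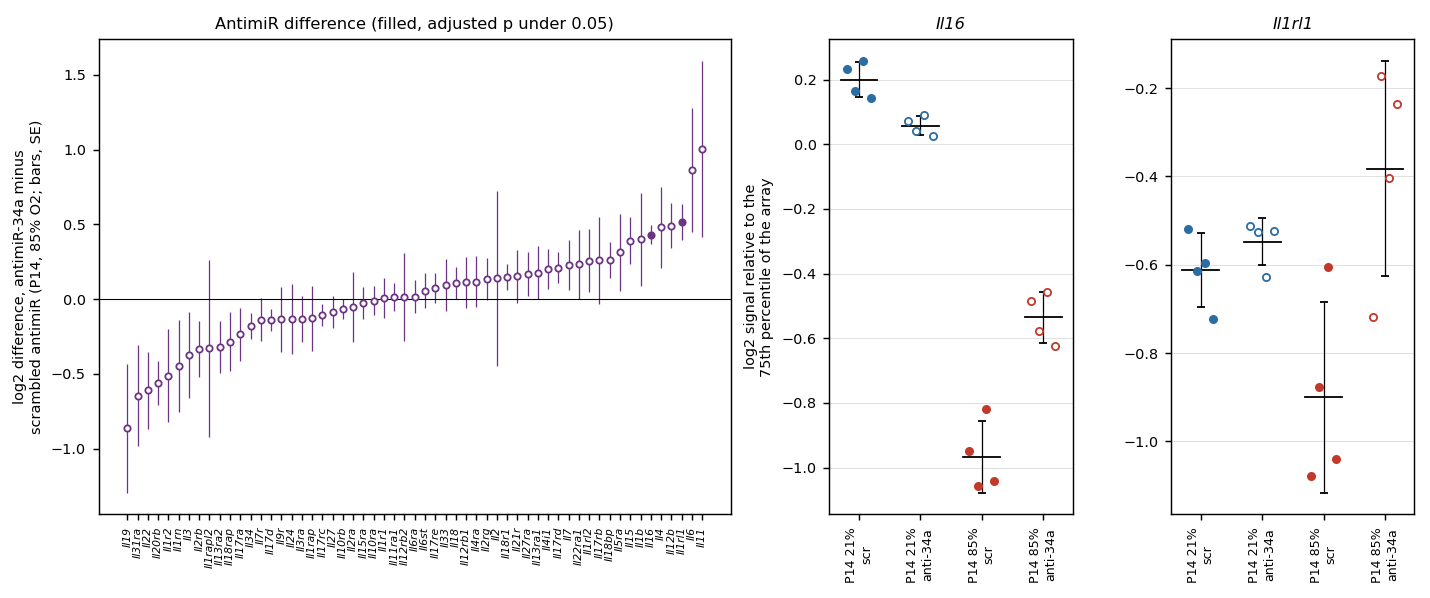
Left, difference between antimiR-34a and scrambled antimiR at P14 of each member gene (log2) in 85% O2, with its standard error (4 mice a group). The other panels show the levels of Il16 and Il1rl1 by mouse in the P14 groups of both oxygen levels. Il16 and Il1rl1, at 0.43 and 0.52 in 85% O2, are the members called, and no member was called in 21% O2.

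Between P5 and P14 in normally growing lungs, the interleukin genes mostly rose. In scrambled antimiR mice in 21% O2, 42 of 66 member probes differed between the ages (63.6%, against 51.4% of all probes), 38 higher at P14 (57.6%, against 27.8%) and 4 lower (6.06%, against 23.5%). The median log2 difference was 0.39 for the members and 0.04 for all probes. By gene, 31 of 58 rose and 4 fell. In the common γ chain, IL-4 and IL-13 family 12 of 15 genes rose and 2 fell, in the IL-1 family 8 of 14 rose, and in the IL-6 and IL-12 families 5 of 11 rose. Ligands rose in 9 of 19 cases and receptors in 21 of 36.

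The mice in 21% O2 at P14 belong to both the age and the oxygen comparison, so that they are not independent. Il4 rose with age by 2.41 ± 0.22 (adjusted p = 1.68e-09), with 3 of 4 arrays above background at P5, Il5ra by 1.76 ± 0.22 (adjusted p = 2.69e-07), Il7r by 1.38 ± 0.18 (adjusted p = 8.75e-07) and Il13ra2 by 1.48 ± 0.22 (adjusted p = 3.36e-06). Il15 rose by 0.84, Il27ra by 0.96, Il18 by 0.62 and Il16 by 0.37. Il12b was above background on 0 of 4 arrays at P5 and 4 of 4 at P14 and was at least 2.74-fold higher at P14 (adjusted p = 2.32e-09), and Il2 and Il31ra were at least 1.97-fold and 1.94-fold higher, on the arrays of unequal brightness described above. Il12b, Il2, Il31ra and Il1rapl2 entered the age test only through P14 mice, so that their rise is in part fixed by the filter. Among others, Il1b rose by 1.14 ± 0.28, Il4i1 by 1.23 ± 0.14, Il2ra by 1.23 ± 0.23 and Il9r by 1.10 ± 0.31, and Il1rl1 and Il33 by 0.75 and 0.63. Il20rb, Il15ra, Il7 and Il17ra were the genes that fell, by 0.52, 0.51, 0.49 and 0.48, but the dimmer Il15ra probe rose by 0.46 ± 0.14 (adjusted p = 0.00841). The Il17ra call was lost without replicate 1 of the P14 mice. Il7 was above background on 3 of 4 arrays at P14, and its call was lost in 4 of 8 fits that left out 1 mouse, and without replicate 4 of the P5 mice its difference was -0.27. Beside 27.8% of all probes higher and 23.5% lower, 16 of 30 genes of the signalling list rose and 2 fell with age, with Nfkbiz (0.72), Jak3 (0.67) and Nfkb1 (0.58) highest, and of the partner list 6 of 19 rose and 2 fell, with Lif (2.71) and Cntfr (1.20) highest. T and B lymphocyte markers summed to 12.1 to 13.4 at P5 and 20.2 to 28.9 at P14, with 9 of 10 higher at P14, and macrophage markers to 48.3 to 57.5 and 97.2 to 144, with 7 of 10 higher. Thymus markers summed to 4.16 to 5.64 at P5 and 5.88 to 6.53 at P14, with 5 of the 7 tested higher. All 6 tested markers of mast cells and basophils were lower. The part of these cells in the differences with age was not tested.

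The oxygen difference itself changed with age for 30 of 66 member probes (45.5%, against 40.9% of all probes), 12 toward higher at P14 (18.2%, against 23.0%) and 18 toward lower (27.3%, against 17.9%). With normexp correction the split was 12 and 12. Beside the genes given above, Il20rb (1.36 ± 0.19), Il3ra (1.30 ± 0.22), Il12rb2 (0.94 ± 0.37), Il1rap (0.75 ± 0.28) and Il17d (0.63 ± 0.11) moved toward higher, and Il7r (-1.24 ± 0.26), Il18 (-1.09 ± 0.18), Il27ra (-0.72 ± 0.24), Il18r1 (-0.60 ± 0.11) and Il1rl1 (-0.54 ± 0.17) toward lower at P14. The probes of Il1rap and Il15ra disagreed. The dimmer Il1rap probe, above background on 1 of 4 arrays in 85% O2 at P14 and 0 of 4 in 21% O2 at P5, was called toward lower (adjusted p = 0.0488), and Il15ra was 0.56 ± 0.17 on its brightest probe and -0.69 ± 0.20 on the other (adjusted p = 0.00823 and 0.00764). Il11, Il34 and Il1r1, which rose at both ages, had interactions of 1.33 ± 0.63, 0.34 ± 0.15 and 0.37 ± 0.16 that were not called (adjusted p = 0.0957, 0.0693 and 0.0718).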

How the data were processed

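One-colour arrays of total lung RNA from 32 mice were analysed, and groups were taken from the sample labels. Per the file headers, the deposited scanner files hold the intensity of each spot as Agilent Feature Extraction (10.7.3.1) wrote it, in which the processed intensity is background-subtracted and not normalized between arrays. The authors also deposited a table of log2 values, which correlated at 0.997 to 1.00 with the log2 processed signal and was used as an alternative. From the processed intensity, log2 minus the array's 75th percentile was computed, control spots and outlier spots (0.211%) were left out, and repeated spots were averaged. Where all 4 arrays of some group showed a probe well above background, it was tested by limma (version 3.58.1, in R version 4.3.3, with the package data.table, version 1.17.8), with one mean per group over the 16 arrays of an age (35984 probes at P5, 38458 at P14) or all 32 (39163), with Benjamini-Hochberg adjustment at 0.05. The methods' Welch test was an alternative. No depth applies to arrays, whose number limits the precision.

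For a group with no array above background, the bound on a fold used the signal of the faintest probe that still exceeded background on each array, no size is given where the probe was above background on 1 array of a group, and where it was above on 2 or 3 the number stands beside the log2 difference.

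In simulated data with 35984 probes, limma recovered 46 of 100 probes changed by 0.5 (log2) and 85 of 100 changed by 1 for the P5 oxygen comparison. With 38458 probes at P14 it recovered 28 and 61 of 100. Only these probes were changed in the simulation, whereas the real comparisons called 43.9% of all probes at P5 and 60.8% at P14. The simulated recoveries are therefore not those of the real comparisons. Other alternatives were normexp correction (offset 50), quantile normalization, no filter, a filter on every array, only the compared groups, a block for replicate number, the mean of a gene's probes and each mouse left out. The 75th percentile as a covariate was added after seeing the data. Slide could not be fitted as a block, since each slide held one age and oxygen level.

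Named genes were the called members with the largest differences, up to 12 in each direction for oxygen and age and 6 for the antimiR, or the 3 with the smallest p where none was called, with a fixed list of members. The members, lists and rules were chosen with earlier results of these data known.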

Additional observations from a re-analysis of the deposited data

Results flagged for a closer look

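For 16 genes in the 8 groups of 4 mice, 1 mouse lay apart from the other 3 by Dixon's test in 11 cases, where chance gives about 1 in 20 groups. Il1r2 was -1.19 in replicate 4 of the P5 scrambled antimiR mice in 21% O2 (others -4.63 to -4.35), the mouse with skeletal muscle signal, and -3.51 in replicate 1 of those in 85% O2 (others -2.80 to -2.69). Il2, close to background, was -6.46 in replicate 1 of the P5 scrambled antimiR mice and -6.28 in replicate 3 of the antimiR-34a mice in 85% O2, and -6.07 in replicate 1 of the P14 antimiR-34a mice in 21% O2 (others -4.01 to -3.83). Il6 was -5.09 in replicate 3 of the P5 antimiR-34a mice in 21% O2 (others -5.99 to -5.92). Il13ra2 was -4.98 in replicate 2 of the P14 scrambled antimiR mice in 85% O2 (others -4.47 to -4.45). The remaining values were Il1r1 at 0.47 (replicate 2 of the P5 scrambled antimiR mice in 21% O2), Il1b at -1.27 (replicate 4 of the P5 antimiR-34a mice in 85% O2), Il7 at -5.29 (replicate 4 of the P5 scrambled antimiR mice in 85% O2) and Il1rl1 at -0.63 (replicate 3 of the P14 antimiR-34a mice in 21% O2).

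The oxygen difference of scrambled antimiR mice differed between P14 and P5 by the interaction term in limma for 12 of these 16 genes, which are members whose values are shown and were chosen with results known. Over all members it was 30 of 66 probes (45.5%), beside 40.9% of all probes. On the log2 scale, Il1r2 (2.26), Il6 (2.22) and Il7 (1.95) had a higher difference at P14. Lower ones were found for Il5ra (-2.60), Il15 (-1.40), Il1b (-1.31), Il16 (-1.16), Il13ra2 (-1.07), Il17rd (-0.93) and Il1rl1 (-0.54). The fitted values of Il4 and Il2 were -3.22 and -2.47, but Il4 was above background on 1 of 4 arrays in 85% O2 at P14 and Il2 on 0 of 4 in 3 of the 4 groups, so that their sizes were not measured. The oxygen difference of Il16 at P14 differed between antimiR-34a and scrambled antimiR by 0.57.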

How the results depend on the processing

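Each slide held 1 age and 1 oxygen level, and 4 mice a group limited the precision. The counts of called probes in the oxygen and age comparisons stayed within 1.5 times of those reported under all alternatives, except that the methods' t-test called 17 for oxygen at P5 with scrambled antimiR. For antimiR-34a in 85% O2 at P14 the count was 1 with normexp correction, quantile normalization, no filter or the authors' values, and 0 with only the compared groups or the methods' t-test. The highest count there under any alternative that kept all mice was 3. The interaction count at P14 was 0 with normexp correction, quantile normalization, no filter, the authors' values or the 75th percentile as a covariate. For antimiR-34a in 85% O2 at P5, 1 was called with no filter. With 1 mouse left out, the counts ranged from 0 to 1 (85% O2, P5), 0 to 2 (21% O2, P14), 1 to 2 (85% O2, P14) and 0 to 1 (interaction, P14), and for oxygen with scrambled antimiR from 20 to 32 at P5 and 30 to 36 at P14. The cause was not tested.

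With replicate number as a block, the counts for scrambled antimiR were 26 at P5 and 35 at P14, for antimiR-34a in 85% O2 at P14 1, and for the interaction at P14 0. The number did not pair the mice (10 of 48 same-number correlations over 0.1, -0.31 to 0.53), although 31 of 96 correlated best with their own number.

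Changes of sign were found for values that were not called, except those of Il1rapl2 and Il31ra. With normexp correction Il22ra1 was 0.11 (antimiR-34a, 21% O2, P5), and for oxygen at P14 the fitted values of Il1rapl2 and Il31ra, close to background, were 0.032 and 0.11 and that of Il2rg -0.028. With quantile normalization, Il6ra was -0.0072, Il7 0.028 and Il16 0.024 for oxygen at P5, and Il6st -0.012 and Il2rg -0.021 at P14. The authors' values gave -0.00705, 0.0278, 0.0233, -0.0149 and -0.0234 for the same genes. The mean of its probes gave -0.086 for Il15ra at P14. With 1 mouse left out, Il6ra ranged from -0.0094 to 0.069, Il15 from -0.048 to 0.11 and Il16 from -0.0596 to 0.0597 at P5, and Il13ra1 from -0.073 to 0.15 and Il2rg from -0.081 to 0.16 at P14. Quantile normalization moved the median of all probes by 0.196 for oxygen in antimiR-34a mice at P14.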
